A study of Mus musculus with 16 samples.

Results

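The insulin-like growth factor (IGF) axis was followed in normal mouse mammary gland and in mouse mammary tumours with an activated or a truncated STAT5. The 10 genes described were the ligands Igf1 and Igf2, the receptor Igf1r, the adaptor Irs1 and the binding proteins Igfbp2, Igfbp3, Igfbp4, Igfbp5, Igfbp6 and Igfbp7. Every probe set that the array's annotation gives to 1 of these genes alone was taken, which gave 22 probe sets of the 20380 with 1 gene symbol. Of these, 19 passed the filter on low signals (above 35.4 on at least 3 arrays), and each of the 10 genes kept at least 1. They were 10 of the 12393 genes represented on the array and of the 9260 genes tested.

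All mice were of the FVB/N background. The 16 arrays held 3 normal mammary glands, 7 mammary tumours with STAT5ca, a constitutively active form of STAT5, and 6 mammary tumours with STAT5Δ750, a form that lacks part of its C-terminus. The labels give no age, reproductive stage, histology or transgene promoter, and nothing in them says that each array came from a separate animal, so that the p-values then measure the spread between these samples only. In bulk tissue, fewer cells of a type and less RNA per cell cannot be told apart.

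IGF1 and IGF2 are secreted growth factors that signal through the receptor tyrosine kinase IGF1R, which recruits adaptors such as IRS1 and starts PI3K and AKT signalling. IGF-binding proteins hold the ligands in the extracellular fluid and either limit or prolong their access to the receptor. In the mammary gland, IGF1 made in the stroma supports the growth of ducts, and IGFBP5 is known for its rise during involution. In liver, growth hormone raises Igf1 through STAT5.

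Igf1 and Igfbp3 were the members that passed the test against gland in both kinds of tumour, in opposite directions, and the 250 bases before their listed starts are shown because they differ plainly in base composition. They were taken from RefSeq on build GRCm38.p6, 5′ to 3′ on the gene's own strand, with CG pairs in capitals. The Igf1 window is chr10:87860861-87861110 on the plus strand and the Igfbp3 window is chr11:7213924-7214173 on the minus strand.
Igf1: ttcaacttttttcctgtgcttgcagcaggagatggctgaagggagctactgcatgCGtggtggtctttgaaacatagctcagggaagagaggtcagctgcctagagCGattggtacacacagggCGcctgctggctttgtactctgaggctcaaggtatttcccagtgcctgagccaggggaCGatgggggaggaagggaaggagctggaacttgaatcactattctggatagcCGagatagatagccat
Igfbp3: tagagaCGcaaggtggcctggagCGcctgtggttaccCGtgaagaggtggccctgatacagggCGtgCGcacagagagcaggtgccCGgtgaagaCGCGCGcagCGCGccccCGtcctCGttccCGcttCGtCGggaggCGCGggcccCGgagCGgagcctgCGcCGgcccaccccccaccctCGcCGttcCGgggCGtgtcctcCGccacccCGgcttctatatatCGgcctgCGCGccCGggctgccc
The Igf1 window holds 5 CG pairs, and 44.4% of the 32851 RefSeq windows of this length hold fewer. The Igfbp3 window holds 32, and 95.4% of windows hold fewer. The median window holds 6. The letters TTCNNNGAA, a core to which STAT factors are known to bind and which reads alike on both strands, were found in 0 of the 14 windows of the 10 members and in 7.02% of all windows, which says only that these letters are not in the 250 bases searched.

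The arrays of the glands were alike and those of the tumours less so. Each gland array had a mean correlation of 0.954 to 0.968 with the other glands over the genes tested, against 0.851 to 0.881 within the STAT5Δ750 tumours and 0.668 to 0.861 within the STAT5ca tumours. The lowest value belonged to STAT5ca_177, which also had the lowest summed signal of luminal epithelial markers, 1039, and the highest of macrophage markers, 34734 against 8214 or less on every other array. The beta-actin 3′/5′ signal ratio, a measure of RNA quality, was 1.07 to 1.25 in gland and 1.27 to 5.38 in tumours, so that every tumour lay above every gland. The same ratio of Gapdh did not separate them, at 0.841 to 1.03 in gland and 0.757 to 1.71 in tumours. Of the adipocyte markers, 8 of 8 tested fell in each kind of tumour, with summed signals of 15586 to 16531 in gland, 641 to 3988 in STAT5ca and 910 to 2842 in STAT5Δ750 tumours, and no marker tested was at 0 on any array. B-cell markers summed to 1660 to 4050 in gland and to 43 to 1473 in tumours, with STAT5ca_124 and STAT5Δ750_254 highest among the tumours. Luminal epithelial markers summed to 4000 to 8612 in gland and to 16024 to 34060 in every tumour but STAT5ca_177. Of these markers 1 of 9 rose in STAT5ca and 2 of 9 in STAT5Δ750 tumours, where 13.9% and 9.29% of all genes rose. The count in STAT5ca tumours was near that share. Of the endothelial markers 5 of 8 fell in each kind of tumour, and of the skeletal muscle markers 9 of 9 in STAT5ca and 8 of 9 in STAT5Δ750 tumours. Skeletal muscle markers summed to 50099 to 61912 in gland, 67 to 11608 in STAT5ca and 287 to 20976 in STAT5Δ750 tumours. Of the T-cell markers, 5 of 5 tested fell in each kind of tumour.

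Against gland, STAT5ca tumours had lower Igf1 and Igfbp6 and higher Igfbp3. STAT5Δ750 tumours had lower Igf1 and higher Igfbp3 and Igfbp2. The 2 kinds of tumour were not separated on any member. In limma's test across all genes, at a Benjamini-Hochberg adjusted p under 0.05, 3 of the 10 members passed in STAT5ca tumours, where 23.3% of all genes passed. The 1 that rose stands beside 13.9% of all genes, and the 2 that fell stand beside 9.40%. In STAT5Δ750 tumours 3 of the 10 passed, where 19.7% of all genes did, and the 2 that rose and the 1 that fell stand beside 9.29% and 10.4% of all genes. The members' counts were near these background shares. The groups did not overlap in 2 members for STAT5ca tumours and gland (22.5% of all genes) and in 4 members for STAT5Δ750 tumours and gland (33.3%). Between the 2 kinds of tumour 0 members passed and 0% of all genes did, while 1 member, Igf2, and 764 genes had an unadjusted p under 0.05, and 0 members were without overlap (0.151% of all genes). The median log2 change of the members was -0.39 in STAT5ca and 0.10 in STAT5Δ750 tumours, against 0.25 and 0.08 over all genes. With the actin ratio as a covariate, 0 of the 10 members passed in STAT5ca tumours, where 772 genes did. In STAT5Δ750 tumours 2 of the 10 passed with it, where 1452 genes did. Because every tumour lay above every gland on the actin ratio, a fit with this covariate cannot fully separate the ratio from tumour against gland. With the Gapdh 3′/5′ ratio in its place, 3 members passed in STAT5ca tumours (2249 genes) and 3 in STAT5Δ750 tumours (1865 genes).

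**Figure D1:**
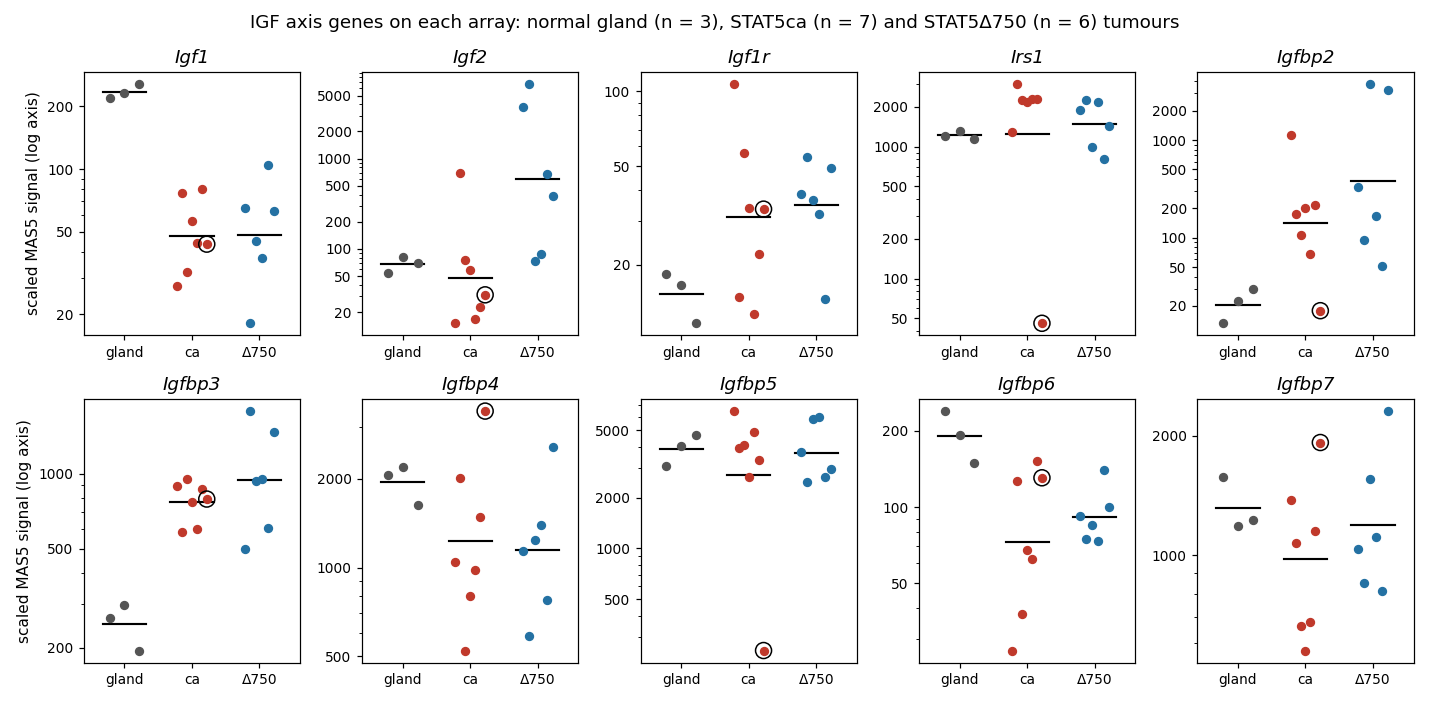
Scaled MAS5 signal of the 10 IGF axis genes on each array (log axis, 1 panel a gene with its own range), with 1 point per array and a line at each group's geometric mean. The ring marks STAT5ca_177. The 3 glands lie above all tumours for Igf1 and below all tumours for Igfbp3, while Igf2 and Igfbp2 spread over 92.2-fold and 73.4-fold within the STAT5Δ750 tumours.

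Igf1 fell in both kinds of tumour. The signals, which are MAS5 values scaled to a common array median, were 219, 232 and 257 in the 3 glands. They ran from 27 to 80 in the 7 STAT5ca tumours, with a median of 44, and from 18 to 104 in the 6 STAT5Δ750 tumours, with a median of 54. The highest tumour, STAT5Δ750_178 at 104, was below the lowest gland, so that neither kind of tumour overlapped with gland. On the log2 scale of the signal plus 7.9, which understates the change of low genes, Igf1 fell by 2.11 ± 0.38 (SE) in STAT5ca tumours, 4.33-fold (limma, adjusted p = 0.00107). Its change in STAT5Δ750 tumours was -2.09 ± 0.39, 4.24-fold (limma, adjusted p = 0.00166). The difference between the tumours was -0.03, with a 95% interval from -0.68 to 0.62, and did not pass (adjusted p = 0.982).

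The other 2 probe sets of Igf1 fell as well. On 1419519_at the glands had 129 to 168, the STAT5ca tumours 15 to 59 and the STAT5Δ750 tumours 21 to 48, with no overlap and log2 changes of -2.03 and -2.04 (adjusted p = 0.000283 and 0.000426 in a limma fit on all probe sets). On 1437401_at, which was dim, the glands had 35 to 66 and the log2 changes were -1.32 and -1.22 (adjusted p = 0.0103 and 0.0205). There 1 tumour, STAT5ca_171 at 38, lay above the lowest gland. The plot of single probe sets shows the 3 side by side. Adipocyte markers were lower in tumours, as Igf1 was. The 3 tumours with the highest adipocyte sums, STAT5ca_124 (3988), STAT5Δ750_178 (2842) and STAT5Δ750_254 (2741), had Igf1 signals of 77, 104 and 65. STAT5ca_177, next with an adipocyte sum of 2159, had 43, and STAT5ca_171, with 1183, had 80. Skeletal muscle markers were lower in tumours as well, and the part of adipocytes or of muscle in the fall was not tested. With the actin ratio as a covariate Igf1 was at -1.45 in STAT5ca tumours and no longer passed (adjusted p = 0.0652), whereas it passed without STAT5ca_177 (-2.09, adjusted p = 0.000964) and without STAT5ca_124 and STAT5Δ750_254 together (-2.21, adjusted p = 0.00135).

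**Figure D2:**
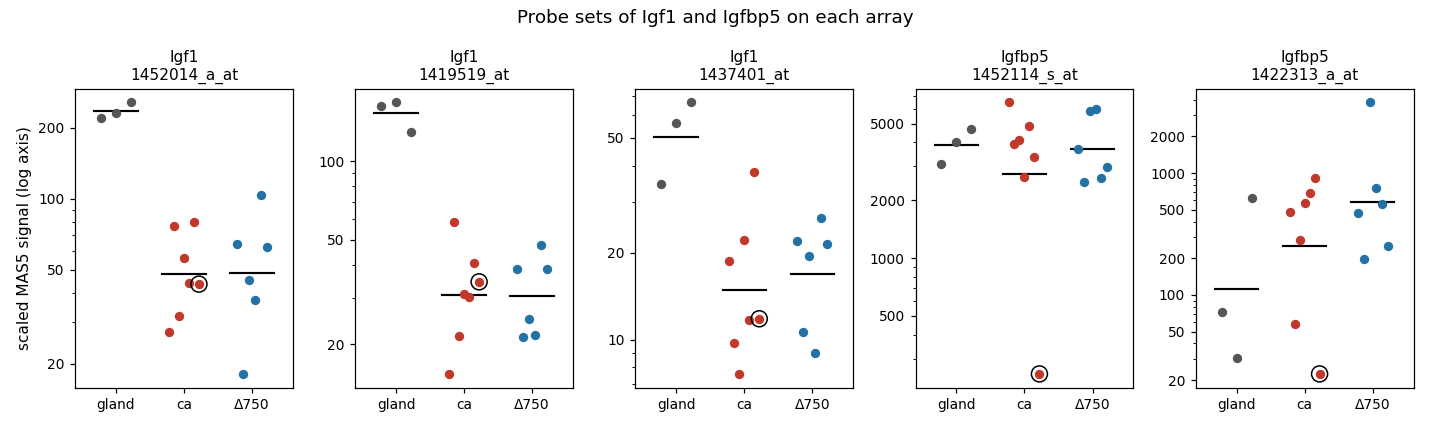
Scaled MAS5 signal (log axis, each panel with its own range) of the 3 probe sets of Igf1 and the 2 of Igfbp5, with 1 point per array, a line at each group's geometric mean and a ring around STAT5ca_177. The Igf1 probe sets were lower in tumours on all 3, while the 2 Igfbp5 probe sets differed in the sign of their change against gland.

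Igf2, the fetal growth factor expressed from the paternal allele, varied more among the STAT5Δ750 tumours than nearly any other gene. The glands had 54, 70 and 81. Of the STAT5Δ750 tumours, STAT5Δ750_92 had 6745, STAT5Δ750_254 had 3740, STAT5Δ750_178 had 678, STAT5Δ750_160 had 389, STAT5Δ750_174 had 88 and STAT5Δ750_165 had 73. Thus 4 of the 6 were far above gland and 2 were near it, and 5 of the 6 exceeded the highest gland. Of the STAT5ca tumours, STAT5ca_124 had 691 and the others 15 to 75, and 4 of the 7 were below the lowest gland. The SD of log2 Igf2 was 2.64 in STAT5Δ750 tumours, where 99.6% of genes had a smaller SD, and 1.72 in STAT5ca tumours, where 94.6% did. It was 0.26 in gland, close to the median of all genes there, 0.25.

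No difference in Igf2 passed the test. In STAT5Δ750 tumours the log2 difference from gland was 3.02 ± 1.29, 8.10-fold, with a 95% interval from 0.28 to 5.76 (limma, adjusted p = 0.113). Without STAT5Δ750_92 it was 2.33. In STAT5ca tumours it was -0.35 ± 1.26 (adjusted p = 0.862), and -0.95 without STAT5ca_124. Between the 2 kinds of tumour it was -3.37 ± 1.02, so that the mean was 10.4-fold lower in STAT5ca tumours, with a 95% interval from -5.53 to -1.22. By size this was rank 2 of the 9260 genes and by p rank 53, and it did not pass (limma, adjusted p = 0.580). The groups overlapped: STAT5ca_124 was above 4 of the 6 STAT5Δ750 tumours, while 5 of the 7 STAT5ca tumours were below all of them. Leaving out STAT5ca_124 and STAT5Δ750_254, the tumours with high B-cell markers, gave -3.44 (adjusted p = 0.924). Leaving out STAT5Δ750_92 gave -2.68, STAT5Δ750_165 -3.96 and STAT5ca_124 -3.97. The other Igf2 probe set, 1415931_at, failed the filter, with signals of 8 or less except 32 on STAT5Δ750_92, the tumour with the highest signal on the first.

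Igf1r, the receptor of both ligands, was dim, at or below 56 on every array except STAT5ca_123. The glands had 12, 17 and 18. The STAT5ca tumours ran from 13 to 107 with a median of 34, and the STAT5Δ750 tumours from 15 to 55 with a median of 38. In each kind of tumour 5 arrays exceeded the highest gland, and the groups overlapped. The log2 differences were 0.80 ± 0.45 in STAT5ca tumours (limma, adjusted p = 0.208) and 0.90 ± 0.46 in STAT5Δ750 tumours (adjusted p = 0.183), and neither passed. The second probe set, 1452108_at, failed the filter, at 3 to 21 on all arrays.

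Irs1, the adaptor that couples the receptor to PI3K, was bright on every array but 1. The glands had 1143, 1211 and 1312. The STAT5ca tumours had a median of 2234 and a highest value of 2984, and STAT5ca_177 had 46, against 1285 for the next lowest. The STAT5Δ750 tumours ran from 804 to 2254 with a median of 1669. Thus 5 of the 7 STAT5ca tumours and 4 of the 6 STAT5Δ750 tumours were above all glands. The log2 difference in STAT5ca tumours was 0.05 ± 0.91 (limma, adjusted p = 0.975) with STAT5ca_177 and 0.81 ± 0.33 without it (adjusted p = 0.0725). In STAT5Δ750 tumours it was 0.28 ± 0.93 (adjusted p = 0.863), and no Irs1 difference passed.

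Igfbp2, a binding protein of fetal tissues and of serum, rose in STAT5Δ750 tumours and by widely different amounts. The glands had 13, 22 and 30. Of the STAT5Δ750 tumours, STAT5Δ750_165 had 3765, STAT5Δ750_160 had 3254, STAT5Δ750_254 had 331, STAT5Δ750_174 had 167, STAT5Δ750_92 had 94 and STAT5Δ750_178 had 51. All 6 were above every gland, 2 of them by a wide margin. The rise was 3.81 ± 1.26 on the log2 scale, 14.0-fold, with a 95% interval from 1.14 to 6.47 (limma, adjusted p = 0.0435), and rank 5 among rises of all genes by size. Luminal marker sums were also higher on these tumours than in gland, and STAT5Δ750_165 had the lowest of its group, 16024. Basal and myoepithelial markers summed to 2132 to 2750 in gland and 1031 to 6115 in STAT5Δ750 tumours. Their sum was 6115 on STAT5Δ750_160 and 2499 on STAT5Δ750_165, while STAT5Δ750_174, with 3054, had an Igfbp2 of 167. Of 8 basal markers tested 0 rose and 1 fell, where 9.29% and 10.4% of all genes did. The part of either list in the Igfbp2 values was not tested. The Igfbp2 call was close to the threshold. It was lost without any 1 of the 3 glands (differences of 3.58 or more, adjusted p = 0.0929 to 0.146), and without STAT5ca_124, STAT5ca_213, STAT5ca_159 or STAT5ca_171, at 3.81, or STAT5Δ750_254, at 3.86 (adjusted p = 0.0522 to 0.0553). Without STAT5Δ750_165 the difference was 3.16 (adjusted p = 0.0786) and without STAT5Δ750_160 it was 3.20 (adjusted p = 0.0787). The call was also lost with the actin ratio as a covariate (4.03, adjusted p = 0.0775), with an offset at the 40th percentile (3.04, adjusted p = 0.0650), with no filter (3.81, adjusted p = 0.0520) and without STAT5ca_124 and STAT5Δ750_254 together (3.86, adjusted p = 0.0664).

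In STAT5ca tumours Igfbp2 was 1137 on STAT5ca_123, 216 on STAT5ca_171, 200 on STAT5ca_159, 175 on STAT5ca_124, 108 on STAT5ca_213, 68 on STAT5ca_169 and 18 on STAT5ca_177. Of these 7, 6 were above every gland, and STAT5ca_177 lay among the glands. The log2 difference was 2.43 ± 1.23 (limma, adjusted p = 0.163) and 2.86 ± 1.18 without STAT5ca_177 (adjusted p = 0.0742), and did not pass. The difference between the 2 kinds of tumour was -1.38 ± 0.99, with a 95% interval from -3.48 to 0.71 (adjusted p = 0.722). The tumours with the highest Igfbp2 were not those with the highest Igf2. STAT5Δ750_165 had the highest Igfbp2 and the lowest Igf2 of its group, and STAT5Δ750_92 the highest Igf2 and the second lowest Igfbp2. Over the 13 tumour arrays, with each group's mean removed, the correlation was -0.33 (Spearman -0.38), a weak one, given as a description.

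**Figure D3:**
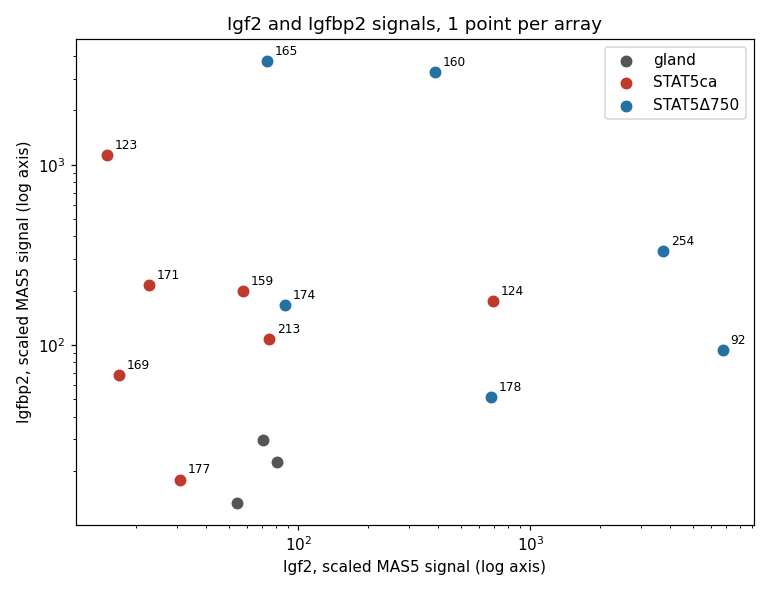
Scaled MAS5 signal of Igf2 (horizontal, log axis) against Igfbp2 (vertical, log axis), with 1 point per array and tumours marked by their label number. STAT5Δ750_92 and STAT5Δ750_254 are highest in Igf2 at 6745 and 3740, and STAT5Δ750_165 and STAT5Δ750_160 are highest in Igfbp2 at 3765 and 3254.

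Igfbp3, the main carrier of IGFs in serum, rose in both kinds of tumour and with little spread in STAT5ca tumours. The glands had 195, 264 and 298. The STAT5ca tumours ran from 585 to 948 with a median of 790, and the STAT5Δ750 tumours from 501 to 1780 with a median of 940. Every tumour was above every gland, also STAT5ca_177, which had 790 at a luminal marker sum of 1039. On the other tumours the higher Igfbp3 signals stood beside luminal sums of 16024 or more, and the part of luminal cells in the rise was not tested. The rise was 1.59 ± 0.33 on the log2 scale, 3.02-fold, in STAT5ca tumours (limma, adjusted p = 0.00307) and 1.89 ± 0.34, 3.71-fold, in STAT5Δ750 tumours (adjusted p = 0.00140). The difference between them was -0.30, with a 95% interval from -0.87 to 0.27 (adjusted p = 0.783). Within STAT5ca tumours the SD was 0.27, and 5.9% of genes had a smaller one. With the actin ratio as a covariate the value in STAT5ca tumours was 1.29 and no longer passed (adjusted p = 0.0898).

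Igfbp4, an inhibitor of IGF action that the protease PAPP-A cleaves, had 6 probe sets, none of which passed. On the brightest the glands had 1634, 2057 and 2189, the STAT5ca tumours 523 to 3395 with a median of 1042, and the STAT5Δ750 tumours 588 to 2559 with a median of 1192. In each kind of tumour 5 arrays were below all glands, while STAT5ca_177 had the highest signal of all arrays. The log2 differences were -0.65 ± 0.49 (limma, adjusted p = 0.357) and -0.75 ± 0.51 (adjusted p = 0.316). Over the 6 probe sets the differences ran from -0.87 to -0.09 in STAT5ca and from -0.85 to -0.18 in STAT5Δ750 tumours.

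Igfbp5, which binds to matrix as well as to IGFs, gave different pictures on its 2 probe sets. On 1452114_s_at the glands had 3074, 4006 and 4697, the STAT5ca tumours 250 to 6478 with a median of 3931, and the STAT5Δ750 tumours 2483 to 5938 with a median of 3338. All groups overlapped, and the lowest value was again that of STAT5ca_177, with 2632 the next lowest in its group. The log2 difference was -0.50 ± 0.71 in STAT5ca tumours (limma, adjusted p = 0.642), 0.07 without STAT5ca_177, and -0.07 ± 0.73 in STAT5Δ750 tumours (adjusted p = 0.958). On 1422313_a_at the glands had 30, 72 and 628, and the differences were 1.11 ± 1.11 (adjusted p = 0.506) and 2.24 ± 1.14 (adjusted p = 0.182). Here the glands themselves spread over 20.8-fold, and the brightest array was STAT5Δ750_165 at 3814, the tumour that also had the highest Igfbp2. STAT5Δ750_160, with the next highest Igfbp2 at 3254, lay below its group's median of 515 on this probe set. With 1452114_s_at, Igfbp2 and Igfbp5 had a correlation of 0.51 (Spearman 0.41) over the 13 tumour arrays, each group's mean removed. Without STAT5ca_177 it was 0.40. Igfbp2 and Igfbp5 are neighbouring protein-coding genes in the RefSeq annotation, and a part of this position in their signals was not tested.

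Igfbp6, which binds IGF2 in preference to IGF1, fell in STAT5ca tumours. The glands had 150, 193 and 240. The STAT5ca tumours ran from 27 to 152 with a median of 68, and 6 of the 7 were below every gland. The fall was 1.27 ± 0.41 on the log2 scale, 2.42-fold (limma, adjusted p = 0.0356). Without STAT5ca_177 the difference was -1.40 (adjusted p = 0.0152). The call was lost without any 1 gland (-1.44 to -1.11, adjusted p = 0.0627 to 0.153) and without STAT5ca_213, STAT5ca_159 or STAT5ca_169 (-1.25 to -1.13, adjusted p = 0.0501 to 0.0628). It was lost as well in a fit on the arrays of these 2 groups alone (-1.27, adjusted p = 0.0912) and with the actin ratio as a covariate (-0.68, adjusted p = 0.478). Among the STAT5ca tumours Igfbp6 was highest on STAT5ca_171 (152), STAT5ca_177 (131) and STAT5ca_124 (127), the 3 with the highest summed fibroblast markers (14131, 17542 and 10787). Their adipocyte sums were 1183, 2159 and 3988. STAT5ca_159, next with a fibroblast sum of 10006, had an Igfbp6 of 68. In STAT5Δ750 tumours the order differed: the highest Igfbp6, 140 on STAT5Δ750_178, stood beside a fibroblast sum of 7092. The highest fibroblast sum of that group, 12836 on STAT5Δ750_160, stood beside an Igfbp6 of 100. Fibroblast markers summed to 7483 to 10945 in gland, 4166 to 17542 in STAT5ca and 5753 to 12836 in STAT5Δ750 tumours. The list was mixed: of 10 markers 2 rose and 3 fell in STAT5ca tumours, where 13.9% and 9.40% of all genes did. In STAT5Δ750 tumours 1 rose and 2 fell (9.29% and 10.4% of all genes). The median log2 changes of the list were -1.35 and -1.15, against 0.25 and 0.08 over all genes. The part of either list in the Igfbp6 values was not tested.

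In STAT5Δ750 tumours Igfbp6 was 73, 75, 85, 92, 100 and 140. All 6 were below every gland, with an SD of 0.32 on the log2 scale, against 0.85 in STAT5ca tumours. The log2 difference was -0.99 ± 0.42 and did not pass in the model of all 3 groups (limma, adjusted p = 0.111), but passed in a fit on the arrays of these 2 groups alone (adjusted p = 0.0118). The difference between the 2 kinds of tumour was -0.28, with a 95% interval from -0.99 to 0.42 (adjusted p = 0.845).

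Igfbp7, a relative that binds IGFs weakly, was at 1183, 1226 and 1577 in gland. It ran from 576 to 1921 in STAT5ca tumours and from 812 to 2304 in STAT5Δ750 tumours, with a median of 1075 in each. The groups overlapped. The log2 differences were -0.43 ± 0.38 (limma, adjusted p = 0.436) and -0.14 ± 0.39 (adjusted p = 0.827). A second, dimmer probe set gave -0.19 and -0.01, and the third, 1437804_at, failed the filter at 1 to 19.

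**Figure D4:**
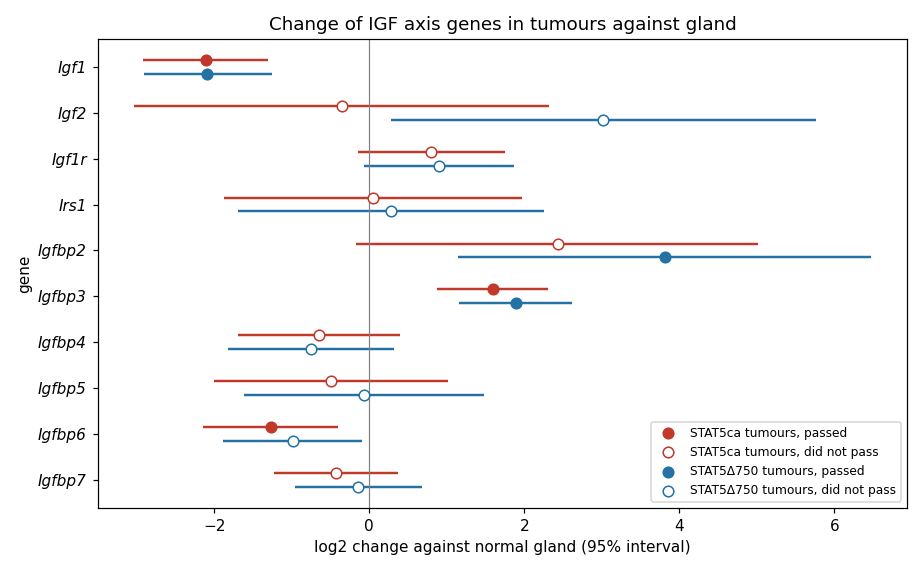
Log2 change of each IGF axis gene (vertical) against normal gland (horizontal, with 95% intervals) in STAT5ca tumours (red) and STAT5Δ750 tumours (blue), filled where limma's adjusted p was under 0.05. Igf1 lies at -2.11 and -2.09, Igfbp3 at 1.59 and 1.89, and the intervals of Igf2 and Igfbp2 are the widest.

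Among the 26 listed genes of IGF receptors and signalling, 18 were tested. In STAT5ca tumours 1 rose and 2 fell, where 13.9% of all genes rose and 9.40% fell, and in STAT5Δ750 tumours 0 rose and 2 fell, where 9.29% rose and 10.4% fell. Grb14, an adaptor that inhibits insulin receptor signalling, had 149 to 323 in gland, 15 to 108 in STAT5ca and 12 to 58 in STAT5Δ750 tumours. It fell in both, with log2 changes of -2.57 ± 0.46 (limma, adjusted p = 0.00107) and -2.50 ± 0.47 (adjusted p = 0.00186). Of the AKT kinases, Akt2 fell in both (-0.75, adjusted p = 0.0295, and -1.08, adjusted p = 0.00514). Akt1 rose in STAT5ca tumours by 0.91 (adjusted p = 0.0165) and was 0.69 higher in STAT5Δ750 tumours, which did not pass (adjusted p = 0.0725). The median change of the list was 0.06 in each, against 0.25 and 0.08 over all genes. Igf2r, which clears IGF2, did not pass in either, at 0.06 and 0.53.

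Of the 15 listed IGF carriers, binding-protein proteases and their inhibitors, 9 were tested. In STAT5ca tumours 1 rose and 2 fell (13.9% and 9.40% of all genes), and in STAT5Δ750 tumours 0 passed (19.7% of all genes). The protease Ctsd rose by 0.83 (limma, adjusted p = 0.0438). Stc2, an inhibitor of PAPP-A, fell by 1.54 (adjusted p = 0.0120), and Htra1, a protease that cleaves IGF-binding proteins, fell by 1.48 (adjusted p = 0.0381). In STAT5Δ750 tumours the same 3 genes were at 0.48, -1.04 and -1.37 (adjusted p = 0.267, 0.0892 and 0.0656).

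Of the growth hormone and prolactin axis, 8 of 9 listed genes were tested, 1 fell in STAT5ca tumours (9.40% of all genes) and 3 fell in STAT5Δ750 tumours (10.4%), and 0 rose in either. The median change was -0.54 and -0.60, against 0.25 and 0.08 over all genes. Ghr, the growth hormone receptor, had 1565 to 2677 in gland, 186 to 863 in STAT5ca and 326 to 1958 in STAT5Δ750 tumours. It fell by 1.97 ± 0.47 (limma, adjusted p = 0.00720) and by 1.51 ± 0.49 (adjusted p = 0.0387), with 1 tumour, STAT5Δ750_178, above the lowest gland. That tumour also had the highest Igf1 signal, 104, and the highest skeletal muscle sum, 20976, among the tumours. The lowest Ghr of its group, 326 on STAT5Δ750_160, stood beside an Igf1 of 63. The lowest Igf1, 18 on STAT5Δ750_92, stood beside a Ghr above the group's median of 713. In STAT5ca tumours the highest Ghr, 863 on STAT5ca_124, stood beside an Igf1 of 77. The highest Igf1 there, 80 on STAT5ca_171, stood beside the median Ghr, 523. The part of Ghr in the Igf1 values was not tested. Jak2, the kinase bound to that receptor, fell by 0.93 in STAT5Δ750 tumours (adjusted p = 0.0422), and Stat5b fell by 1.28 (adjusted p = 0.0184). Of the 7 listed IGF2 RNA-binding proteins and imprinted partners 2 were tested, Plagl1 and Cdkn1c, and neither passed. In the comparison of the 2 kinds of tumour, 0 genes of these 4 lists passed.

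Across the 13 tumour arrays, with each tumour group's mean removed, Igfbp4 and Igfbp7 had a correlation of 0.85 (Spearman 0.82) and of 0.79 without STAT5ca_177. Igfbp2 and Igfbp7 had one of 0.44 (Spearman 0.37), and of 0.83, the highest of any pair, without that array. Igf1 and Igfbp6, which were both lower in tumours than in gland, had a correlation of 0.72 (Spearman 0.78) and of 0.81 without STAT5ca_177. Irs1 and Igfbp5 had one of 0.85, which rested on STAT5ca_177, the lowest array for both: it was -0.17 without it, and Spearman's was 0.36. Without the 2 arrays farthest from the median of the first gene, the 4 correlations were 0.79, 0.16, 0.82 and -0.07 in this order. Igf1r ran against Igfbp6 at -0.71 and against Igf1 at -0.68. These values are descriptions over arrays that share 1 scaling, and no p is attached.

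The genes whose tumour pattern was most like that of a member were named by the same correlation over the 13 arrays. They are the 3 highest picked from the 9260 genes tested. Among so many genes and so few arrays, high values can arise by selection alone, so they assign no cell type to a member. For Igf1 they were Dact1 (0.82), Cd209d (0.81) and Retnla (0.78), the last 2 known from macrophages. Only 2 genes were above 0.8 with Igf1, and without STAT5ca_177 the highest were Fcna (0.93), Ltc4s (0.89) and Cd209d (0.86). STAT5ca_177, with the highest macrophage marker sum (34734), had an Igf1 signal of 43, where its group's median was 44. The part of macrophages in the Igf1 values was not tested. For Igf2 the genes most alike were H1f2, Septin4 and Ggt5, at 0.86, 0.86 and 0.85. For Igfbp3 they were Apbb2 (0.89), Col4a1 (0.87), a chain of basement membrane collagen, and Pura (0.83). For Igfbp6 they were Pcolce2, Adgrd1 and Pi16, at 0.91, 0.91 and 0.90, and Pi16 is known as a marker of fibroblasts. Igf1r was most like Eri3, Pop7 and Ptbp1, at 0.94, 0.92 and 0.88, and Igfbp2 most like Slc6a15, Ctnnbl1 and Zfp553, at 0.89, 0.88 and 0.87. Igfbp4 was most like Ms4a4d, Pla1a and Abcg1, at 0.95, 0.93 and 0.92, and Igfbp7 most like Adcy3, Timp1 and Glipr1, at 0.95, 0.94 and 0.93. The likenesses of Irs1 and Igfbp5 were lower without STAT5ca_177. Irs1 with Cldn1, a tight junction protein, went from 0.98 to 0.86 without that array, with Lrba from 0.97 to 0.76 and with Dock9 from 0.97 to 0.80. Igfbp5 with Efs went from 0.96 to 0.69, with Fxyd3 from 0.96 to 0.68 and with Sox10, a factor of mammary progenitor cells, from 0.95 to 0.60.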

How the data were processed

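RNA of 16 mouse mammary samples was hybridised to Affymetrix 430A 2.0 arrays. The authors deposited MAS5 signals, linear intensity values of 22690 probe sets on every array. MAS5 is named, with no version, in the submitters' processing notes, and filters or a genome build are not given in the sources used here. Array medians ran from 57.3 to 90.7, and each array was scaled to a common median of 75.93. An offset of 7.9 (20th percentile of the deposited signals) was added before taking log2. Probe sets above 35.4, the 40th percentile, on at least 3 arrays were kept (15764). Of all probe sets, 20393 had 1 gene symbol, 691 had several, and 1606 were unnamed here; control probe sets were left out. The brightest probe set on average stood for a gene, which gave 9260 genes.

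The 3 groups, as the labels give them, were fitted in 1 limma 3.58.1 model (R 4.3.3) with 13 residual and 2.98 prior degrees of freedom and two-sided p-values, Benjamini-Hochberg adjusted per comparison (threshold 0.05). The fit was tested on simulated data whose noise had the same spread in all groups. In the real data the median SD of all genes was 0.25 in gland, 0.58 in STAT5ca and 0.43 in STAT5Δ750 tumours. The simulation therefore does not cover unequal spread. The number of arrays limits the precision. Named were all 10 members, up to 3 passing genes per list and comparison with the smallest adjusted p, and the 3 genes most correlated with each member; the genes at the top of a size or tumour order were picked from the values. The members, lists and alternatives were chosen with earlier results of these data known. Alternatives covered scaling, offset, filter, probe set, variance model, array weights, the groups fitted, 3′/5′ ratios as covariates and leaving out arrays. The labels give no batch or pairing. Plots used Python 3.11.15 and matplotlib 3.10.9.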

Additional observations from a re-analysis of the deposited data

Results flagged for a closer look

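In 3 of the 20 tumour groups looked at (10 genes in each kind of tumour), 1 array stood far from the others by Dixon's criterion. Chance alone marks about 1 in 20 groups, and the same criterion marked 11.8% of all 9260 genes in STAT5ca tumours, 8.63% on STAT5ca_177, and 6.37% in STAT5Δ750 tumours. Igf2 on STAT5ca_124 had a log2 value of 9.45 (scaled signal 691), with the next highest STAT5ca tumour at 6.37. Irs1 on STAT5ca_177 was at 5.75 (signal 46), with the next lowest at 10.34, and Igfbp5 on the same array was at 8.01 (signal 250), with the next lowest at 11.37.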

How the results depend on the processing

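Over the alternatives other than single probe sets, the members' results kept their direction and their side of the threshold in 791 cases, lost the call in 24, gained it in 8 and changed sign in 44, all of the last among differences that did not pass. Most of the 791 were differences that did not pass in the main fit either. Of the lost calls, 14 were of Igfbp2 in STAT5Δ750 tumours and 8 of Igfbp6 in STAT5ca tumours. Igf1 and Igfbp3 in STAT5ca tumours lost 1 each. In STAT5Δ750 tumours the Igf1 fall and the Igfbp3 rise passed in every alternative run. The number of members passing in STAT5ca tumours was 6 with array quality weights and 0 with the actin ratio as a covariate, against 3, and in STAT5Δ750 tumours it was 7 with array quality weights, against 3. Leaving out 1 array at a time gave 2 to 3 in STAT5ca tumours, 2 to 3 in STAT5Δ750 tumours and 0 to 0 between the tumours. Over all genes, array quality weights gave 4998 and 4861 calls in place of 2154 and 1823, the actin covariate 772 in STAT5ca tumours, the 2 groups' arrays alone 2826 in STAT5Δ750 tumours, and leaving out 1 gland 1179 to 1315 in STAT5ca and 835 to 1207 in STAT5Δ750 tumours. The split of higher against lower calls was 622 to 1226 (STAT5ca) and 706 to 1299 (STAT5Δ750) with the deposited scaling, and 871 to 1137 and 896 to 1278 with quantile normalization, against 1284 to 870 and 860 to 963. The deposited scaling moved the median change of all genes in STAT5ca tumours from 0.25 to -0.02.

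Changes of sign in STAT5ca tumours against gland were, for Igf2, 0.01 with array quality weights. For Irs1 they were -0.24 with the deposited scaling, -0.22 with quantile normalization, -1.15 with the actin and -0.03 with the Gapdh covariate, and -0.16 without STAT5ca_124 and STAT5Δ750_254. For Igfbp5 they were 0.31 with the mean of its probe sets, 0.07 with weights and 1.11 on 1422313_a_at. In STAT5Δ750 tumours they were -0.44 for Irs1 with the actin covariate, and for Igfbp5 1.09 with the mean, 0.24 with weights, 0.11 with the Gapdh covariate and 2.24 on 1422313_a_at. Between the tumours they were 0.09 with weights, 0.24 with the actin covariate and 0.01 on 1419519_at for Igf1, and 0.06 for Igf1r without those 2 arrays. For Irs1 the value was 0.32 with weights. For Igfbp4 they were -0.06 with the deposited scaling, -0.11 with quantile normalization, -0.15 with weights, -0.02 without those 2 arrays, -0.06 on 1421992_a_at and -0.02 on 1437406_x_at. Leaving out 1 array moved Irs1 from -0.16 to 0.81 and Igfbp5 from -0.71 to 0.07 in STAT5ca tumours, and Igfbp5 from -0.24 to 0.07 in STAT5Δ750 tumours. Between the tumours it moved Igf1 from -0.26 to 0.16, Igf1r from -0.35 to 0.07, Irs1 from -0.44 to 0.53, Igfbp4 from -0.14 to 0.33 and Igfbp5 from -0.63 to 0.14. The cause of these changes was not tested. A filter at 134.8 removed Igf1r. Signals near 7.9 carry little information on change. No paired analysis was possible because the groups share no replicate numbers.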
